A study of Mus musculus with 8 samples.

Results

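The genes of the mitochondrial respiratory chain were examined in CD8 T cells taken from mouse tumours. The 111 members, out of 32932 genes in the expression tables, are the genes whose symbols begin with Nduf, Uqcr, Uqcc, Cox4 to Cox8 or Atp5, the Sdha to Sdhd genes, and the protein-coding genes of the mitochondrial genome. Pseudogene symbols ending in -ps were dropped. Of the members, 98 lie in the nuclear genome and 13 in the mitochondrial genome. The nuclear members comprise 36 complex I genes, 4 complex II genes, 8 complex III genes, 20 complex IV genes, 19 ATP synthase (complex V) genes and 11 assembly factors. The rule was applied to the symbols of either annotation and joined by Ensembl ID, so that 2010107E04Rik and Usmg5 of the older table are given as Atp5mpl and Atp5md, and Dmac2l of the newer table as Atp5s.

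All mice were C57BL/6, labelled wild type, with palpable tumours of MC38, a mouse colon carcinoma line. In experiment 1, mice received buffer or 10 mg/kg rhIL-7-hyFc, a long-acting form of the T cell survival cytokine interleukin-7 fused to an Fc domain, by subcutaneous injection, and tumours were taken 7 days later. In experiment 2, all mice received 1.25 mg/kg rhIL-7-hyFc subcutaneously, either alone or with an intravenous bispecific T cell engager (TCE) against mouse PD-L1 and CD3ε that began 3 days after rhIL-7-hyFc. Experiment 2 tumours were taken 24 hours after the final treatment. CD8 T cells were enriched by magnetic positive selection in experiment 1 and by sorting of viable CD45+ TCRb+ CD8a+ cells in experiment 2. Each of the 4 groups is 1 library of droplet single-cell RNA sequencing with matched T cell receptor sequencing. The labels do not say how many mice each library holds, nor the age of the mice. As each group is a single library, replicate error is unknown and no test was made. Each interval below is a 95% interval that covers counting error only. The experiments differ in dose, enrichment and processing, so values were compared only within an experiment or within a library.

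The respiratory chain sits in the inner mitochondrial membrane. Complexes I and II feed electrons from NADH and succinate through ubiquinone to complex III, cytochrome c carries them to complex IV, and the proton gradient built on the way drives ATP synthase. Complex II is encoded wholly in the nucleus, whereas complexes I, III, IV and V are mosaics of many nuclear subunits and a few core subunits encoded in mitochondrial DNA, which must be made in step with each other. The mitochondrial genes are transcribed as long polycistronic RNAs from both strands of the circular genome and cut apart at intervening tRNAs. In CD8 T cells, naive and memory cells are known to rely on oxidative phosphorylation, activated cells add glycolysis, and tumour-infiltrating cells with sustained PD-1 (Pdcd1) expression have been described as losing mitochondrial function.

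Barcodes counted as CD8 T cells held at least 1 UMI (a counted RNA molecule) of Cd8a or Cd8b1 and at least 1 of Cd3d, Cd3e or Cd3g. They also had 500 or more genes with a UMI and a mitochondrial share of UMIs below 10%. This gate kept 3975 of 5589 barcodes in the buffer library, 5622 of 6361 in the 10 mg/kg library, 10888 of 12560 in the 1.25 mg/kg library and 10933 of 11501 in the combination library. The summed UMIs of the gated barcodes were 41144471, 61120884, 109627615 and 91111930, and the median per barcode ran from 6700 to 9726. All 10 T cell markers and both Cd8 genes stood above 5 CPM, counts scaled to an equal library total, in every library. The gate also let in RNA of other cells: the 14 macrophage and monocyte markers summed to 1984, 525, 6493 and 1552 CPM in the order buffer, 10 mg/kg, 1.25 mg/kg and combination, with Fcer1g the highest. Between 0.533% and 1.86% of gated barcodes in a library carried the same barcode sequence as one in another library. The cap on mitochondrial UMIs acts on the mitochondrial members themselves, and removed 350 barcodes (8.09%) of the buffer library, 167 (2.88%) of the 10 mg/kg library, and 6 and 13 barcodes of the experiment 2 libraries.

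A gene counted as measured where it reached 5 CPM in 1 of the columns compared. It counted as higher or lower where the ratio of CPM + 1 values passed 1.25-fold. Of the nuclear members, 90 were measured in each treatment comparison. The 8 that were not are mostly tissue-restricted forms: Cox4i2, Cox6b2, Cox7a1, Cox7b2, Cox8b, Cox8c and Ndufa4l2, each at 2.36 CPM or less in every library, and a second Ensembl entry named Atp5o that only the experiment 1 table lists. All 13 mitochondrial members were measured throughout.

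The promoters of 6 genes are shown because the results return to them: the 3 genes for ATP synthase subunit c, which encode the same mature protein, and Ndufaf2, Cox7c and Ndufa4, which were among the nuclear members with the largest ratios between cell states. The 6 were chosen after their values were seen. Each is the RefSeq GRCm38.p6 window of 300 bases, 250 before and 50 after the annotated start, read on the gene's strand, which is the minus strand for all 6. The windows are chr11:96075582-96075881 for Atp5g1, chr15:102670998-102671297 for Atp5g2, chr2:73911277-73911576 for Atp5g3, chr13:108158576-108158875 for Ndufaf2, chr13:86046746-86047045 for Cox7c and chr6:11907401-11907700 for Ndufa4. The 50 bases after the start lie in the transcribed part of the gene, and the Atp5g2 window lies inside the longer gene span of the GENCODE M21 annotation. Capitals mark a match to the motif GCGCATGCGC (the half-site GCGCA followed by its reverse complement) of nuclear respiratory factor 1 (NRF1), a transcription factor known for binding promoters of respiratory chain genes.
Atp5g1: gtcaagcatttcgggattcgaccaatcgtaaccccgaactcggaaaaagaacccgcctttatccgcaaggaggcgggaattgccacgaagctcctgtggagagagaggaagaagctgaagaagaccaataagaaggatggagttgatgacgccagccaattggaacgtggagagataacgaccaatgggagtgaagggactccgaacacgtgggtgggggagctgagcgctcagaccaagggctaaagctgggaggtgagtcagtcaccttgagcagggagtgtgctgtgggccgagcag
Atp5g2: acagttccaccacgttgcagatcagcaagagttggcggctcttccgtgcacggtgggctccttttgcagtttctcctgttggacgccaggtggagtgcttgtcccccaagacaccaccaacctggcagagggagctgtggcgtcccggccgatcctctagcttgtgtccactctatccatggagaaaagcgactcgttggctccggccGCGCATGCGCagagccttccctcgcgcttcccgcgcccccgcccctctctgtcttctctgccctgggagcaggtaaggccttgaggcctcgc
Atp5g3: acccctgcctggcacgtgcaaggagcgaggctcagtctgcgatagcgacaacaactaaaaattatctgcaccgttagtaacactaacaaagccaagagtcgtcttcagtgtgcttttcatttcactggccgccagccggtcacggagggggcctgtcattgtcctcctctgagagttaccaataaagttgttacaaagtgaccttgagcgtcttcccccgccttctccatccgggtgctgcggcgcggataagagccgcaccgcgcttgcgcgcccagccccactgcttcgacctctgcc
Ndufaf2: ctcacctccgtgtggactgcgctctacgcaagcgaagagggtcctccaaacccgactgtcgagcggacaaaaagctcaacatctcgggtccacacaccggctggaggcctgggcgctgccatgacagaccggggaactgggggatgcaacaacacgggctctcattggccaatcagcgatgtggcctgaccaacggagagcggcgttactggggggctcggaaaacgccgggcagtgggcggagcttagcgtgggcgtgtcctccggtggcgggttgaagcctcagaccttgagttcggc
Cox7c: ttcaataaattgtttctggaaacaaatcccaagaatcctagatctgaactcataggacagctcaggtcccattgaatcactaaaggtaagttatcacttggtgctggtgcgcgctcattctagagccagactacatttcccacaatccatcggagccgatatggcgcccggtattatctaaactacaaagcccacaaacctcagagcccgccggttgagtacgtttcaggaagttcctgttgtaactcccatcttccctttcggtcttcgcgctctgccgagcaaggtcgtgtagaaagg
Ndufa4: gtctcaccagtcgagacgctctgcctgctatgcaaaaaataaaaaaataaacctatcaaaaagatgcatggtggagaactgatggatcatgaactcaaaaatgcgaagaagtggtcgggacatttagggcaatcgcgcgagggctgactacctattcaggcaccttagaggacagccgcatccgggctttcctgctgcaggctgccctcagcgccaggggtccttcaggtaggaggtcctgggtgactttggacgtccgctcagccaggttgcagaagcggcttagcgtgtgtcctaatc
Both strands were searched for GCGCATGCGC and for CCGGAAG, a core that ETS factors such as GABP bind. The motifs do not overlap each other in letters. A window was listed for 78 of the 111 members, and the NRF1 motif was present in 7 of them (8.97%), against 290 of 27025 genes (1.07%). The 7 were Atp5g2, Atp5k, Cox6a1, Uqcrc1, Ndufa11, Ndufaf4 and Ndufaf5. The ETS core was present in 19 of the 78 (24.4%) against 2683 of all genes (9.93%). Of the 6 printed windows only that of Atp5g2 held a match, with the NRF1 motif. These are matches of letters and not sites of binding.

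RNA of the mitochondrial genome was a smaller share of all UMIs in Pdcd1-positive than in Pdcd1-negative cells of all 4 libraries. The nuclear members of the same complexes lay close to the median of all genes in 3 libraries and above it in the buffer library. CPM are shares of a total, and positive cells held more UMIs at the median in every library. Lower CPM thus need not mean fewer mitochondrial RNA molecules per cell, which were not compared. A cell counted as Pdcd1-positive where it held at least 1 Pdcd1 UMI, which was so for 67.1%, 17.4%, 58.8% and 64.1% of gated cells of the buffer, 10 mg/kg, 1.25 mg/kg and combination libraries. The 13 mitochondrial members summed to 15855 CPM in negative and 12155 CPM in positive cells of the buffer library, a ratio of 0.767 (0.762 to 0.771). In the 10 mg/kg library they summed to 18722 and 14113 CPM, a ratio of 0.754 (0.750 to 0.757). In the 1.25 mg/kg library the sums were 11305 and 8471 CPM, a ratio of 0.749 (0.746 to 0.753). In the combination library they were 10907 and 8202 CPM, a ratio of 0.752 (0.749 to 0.755). The 4 ratios thus fell within 0.749 to 0.767, although the levels and the shares of Pdcd1-positive cells differed between libraries.

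The difference ran through the mitochondrial genome rather than resting on 1 gene. In the buffer library 11 of the 13 were lower past 1.25-fold, where 27.3% of all measured genes were. In the 10 mg/kg library it was 9 (15.1% of all genes), in the 1.25 mg/kg library 11 (17.1%) and in the combination library 12 (12%). In all 4 libraries at once, 8 of 13 were lower past 1.25-fold, namely mt-Nd1, mt-Nd2, mt-Nd3, mt-Nd4l and mt-Nd5 of complex I, mt-Co1 of complex IV, and mt-Atp6 and mt-Atp8 of ATP synthase, against 5.65% of the 8371 genes measured in all 4. A further 4, mt-Nd4, mt-Cytb, mt-Co2 and mt-Co3, were below their level in negative cells in every library without passing 1.25-fold in all of them.

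mt-Co1, the catalytic core of complex IV that holds its heme groups, stood at 3890, 4741, 3378 and 3542 CPM in the negative cells of the buffer, 10 mg/kg, 1.25 mg/kg and combination libraries. In the positive cells it stood at 2783, 3247, 2380 and 2648 CPM, log2 ratios of −0.48, −0.55, −0.51 and −0.42. It was thus lower in positive cells by a similar factor in each library. mt-Nd5, a proton-pumping subunit of complex I, went from 339, 386, 218 and 236 CPM in negative cells to 231, 262, 152 and 171 CPM in positive cells. mt-Cytb, the only mitochondrially encoded subunit of complex III, showed the smallest steady difference, from 1259, 1390, 811 and 725 CPM to 1058, 1261, 719 and 593 CPM, log2 ratios of −0.25, −0.14, −0.17 and −0.29. mt-Nd6, the one protein-coding gene of the light strand, did not follow the others in every library: its log2 ratios were −0.34, 0.10, −0.34 and −0.34, and its levels were low, at 10.5 to 27.5 CPM.

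Some of the mitochondrial genes overlap in the annotation. On the same strand, mt-Atp8 and mt-Atp6 share 43 bases, mt-Nd4l and mt-Nd4 share 7, and mt-Atp6 and mt-Co3 share 1. On opposite strands, mt-Nd5 and mt-Nd6 share 14. How UMIs of the shared bases were assigned was not examined. A split of them between the genes of a same-strand pair would leave the sum unchanged. Whether reads in the shared bases were instead left out of the counts was not tested.

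**Figure D1:**
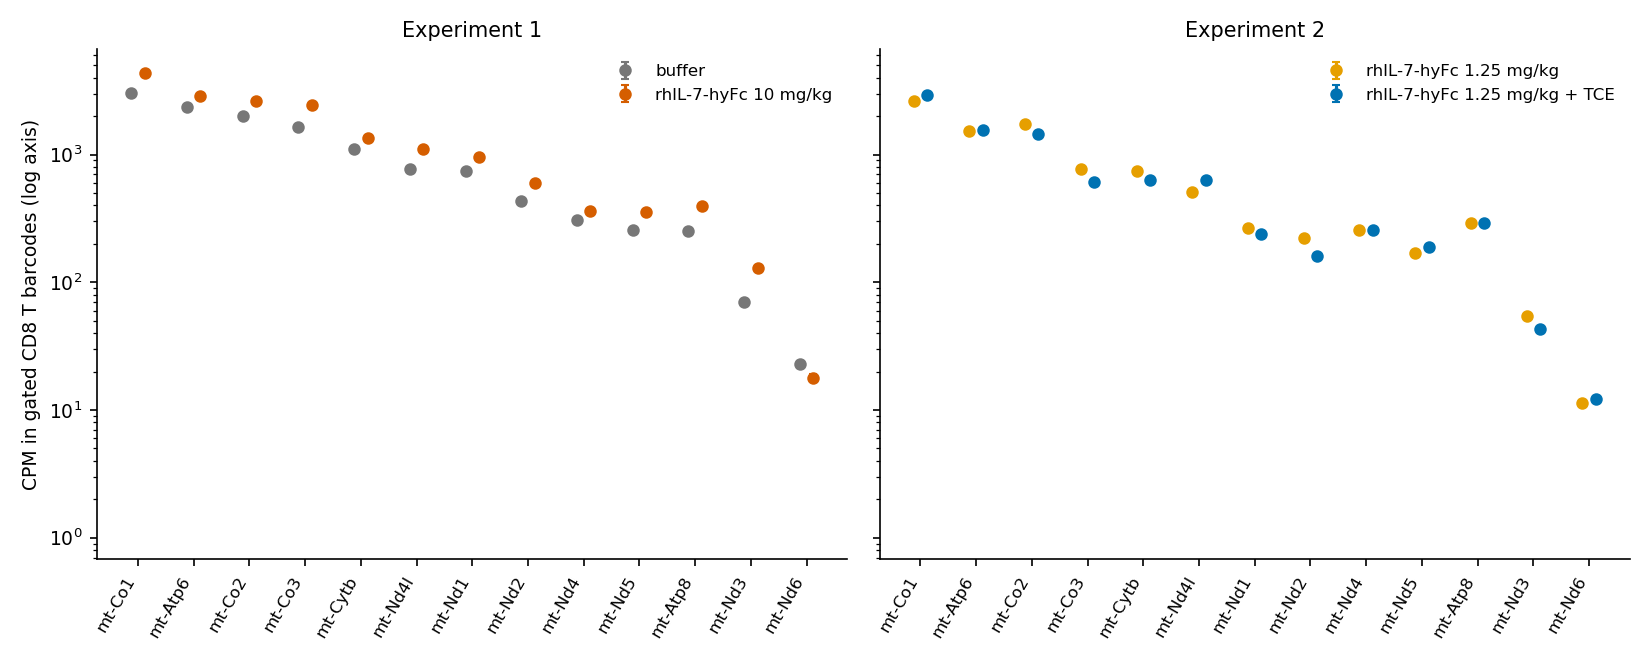
CPM of each of the 13 mitochondrial genes on a log axis, in the gated cells of the 4 libraries, with exact 95% Poisson intervals for counting error. The 10 mg/kg library lies above the buffer library for every gene except mt-Nd6, and the pair of experiment 2 libraries lie close to each other.

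Among the nuclear members the same contrast gave small differences in both directions. The median log2 ratio of positive over negative cells was 0.18 in the buffer library, 0.14 in the 10 mg/kg library, 0.13 in the 1.25 mg/kg library and 0.03 in the combination library. The median over all measured genes was −0.04, 0.15, 0.05 and 0.02, so that the nuclear members differed from it by 0.21, −0.01, 0.07 and 0.01. Past 1.25-fold, 12 were higher and 2 lower in the buffer library, where 17.5% of all genes were higher. The counts were 16 and 2 in the 10 mg/kg library (34.2% of all genes higher), 14 and 3 in the 1.25 mg/kg library (25.6%), and 4 and 2 in the combination library (17.9%). Of the 89 nuclear members measured in every library, 40 were above 0 and 2 below 0 in all 4, against 28.5% and 22.0% of all genes. These counts depend on how libraries are scaled. Counted over nuclear and mitochondrial members together, the split of higher to lower in the order buffer, 10 mg/kg, 1.25 mg/kg and combination was 12 to 13, 16 to 11, 14 to 14 and 4 to 14 in CPM. It was 46 to 3, 4 to 17, 10 to 15 and 3 to 14 after trimmed-mean (TMM) scaling, and 9 to 16, 7 to 17, 4 to 22 and 1 to 18 in CPM that leave mitochondrial and cytosolic ribosomal protein genes out of the total. The nuclear median of the 10 mg/kg library turned from 0.14 to −0.06 with TMM. Under each of these scalings the mitochondrial sum stayed lower in positive cells in all 4 libraries.

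Complex II, the one complex without a mitochondrially encoded subunit, is built from the flavoprotein Sdha, the iron-sulfur protein Sdhb and the membrane anchors Sdhc and Sdhd. Sdhb stood at 197, 209, 176 and 247 CPM in negative cells and 252, 258, 220 and 242 CPM in positive cells, in the order buffer, 10 mg/kg, 1.25 mg/kg and combination. It was thus above its level in negative cells in 3 libraries (log2 0.36, 0.30 and 0.33) and close to it in the combination library (−0.03). Sdha had log2 ratios of 0.11, −0.04, −0.19 and −0.16. Sdhc and Sdhd were above 0 in every library, by 0.12 to 0.21 and by 0.02 to 0.20. No complex II gene passed 1.25-fold in all 4 libraries. Over all complexes, 2 of 89 nuclear members (2.25%), Cox7c and Ndufaf3, were higher past 1.25-fold in all 4, a smaller share than the 6.64% of all genes, and their values are given as a description.

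In complex IV, Cox7c, a small structural subunit of the membrane part, rose past 1.25-fold in positive cells of every library. It went from 468, 488, 404 and 426 CPM in negative cells to 648, 700, 559 and 544 CPM in positive cells, log2 ratios of 0.47, 0.52, 0.47 and 0.35. Cox5a, a nuclear subunit on the matrix side, went from 462, 398, 456 and 589 CPM to 621, 623, 632 and 668 CPM, and passed 1.25-fold in all but the combination library. Ndufa4, once counted with complex I and now with complex IV, was the 1 nuclear complex IV member below 0 in all 4 libraries. It stood at 380, 347, 381 and 497 CPM in negative cells and 305, 342, 303 and 340 CPM in positive cells. Its log2 ratios were −0.32, −0.02, −0.33 and −0.55. Those of Cox7a2l were 0.08, −0.40, −0.40 and −0.08, below 0 in all but the buffer library.

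The assembly factors of complex I, which help build the complex and do not remain in it, made up 3 of the 5 nuclear members with the largest ratios of the same sign in all 4 libraries. Ndufaf2, an assembly chaperone of complex I, went from 18.7, 10.9, 9.89 and 11.02 CPM in negative cells to 23.4, 25.1, 16.3 and 15.6 CPM in positive cells, log2 ratios of 0.31, 1.13, 0.67 and 0.47. Ndufaf3, which acts early in assembly, went from 27.7, 29.2, 31.6 and 33.5 CPM to 45.3, 41.8, 47.4 and 43.8 CPM and passed 1.25-fold in all 4. Ndufaf7, a methyltransferase that modifies a complex I subunit during assembly, had log2 ratios of 0.47, 0.64, 0.40 and 0.28. All 3 are low-level genes, and each was above its level in negative cells in all 4 libraries. As a group the assembly factors did not stand out. Of the 11 measured, 5 (45.5%) were above 0 in all 4 libraries, against 44.9% of all nuclear members. Ndufaf4 and Ndufaf6, also of complex I, differed in sign between libraries, with log2 ratios for Ndufaf6 of −0.47, 0.10, −0.01 and −0.28. Among complex III members, Uqcrb, which supports ubiquinone binding, had log2 ratios of 0.13, 0.46, 0.45 and 0.34.

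By clone size the mitochondrial members were again lower, and the nuclear members lay near the median of all genes. A clonotype was the productive alpha and beta chain with most UMIs in a barcode, by CDR3 nucleotides and V gene, and cells of clonotypes with at least 5 gated cells in a library were set against cells of clonotypes seen once. There were 1576 and 948 such cells in the buffer library, 403 and 4475 in the 10 mg/kg library, 2530 and 3436 in the 1.25 mg/kg library, and 3395 and 3514 in the combination library. The contrast reads the same libraries as the Pdcd1 contrast, so it is not a separate measurement of the pattern. The mitochondrial sum was 14587 CPM in single and 10796 CPM in expanded cells of the buffer library (ratio 0.740, 0.735 to 0.745), and 18419 and 12793 CPM in the 10 mg/kg library (0.695, 0.689 to 0.6996). In the 1.25 mg/kg library it was 10794 and 7573 CPM (0.702, 0.697 to 0.706), and in the combination library 9971 and 7271 CPM (0.729, 0.725 to 0.734). In each library 11 of 13 were lower past 1.25-fold, where 17.2%, 18.1%, 16.8% and 14.3% of all genes were. The 10 that were lower in all 4, against 7.47% of 8390 genes, were all but mt-Nd3, mt-Nd6 and mt-Cytb.

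Cells of clonotypes with 2 to 4 members lay at or between these ends for most mitochondrial genes. mt-Nd5 in single cells, clonotypes of 2 to 4 and larger clonotypes was 346, 212 and 200 CPM in the buffer library, 377, 253 and 244 CPM in the 10 mg/kg library, 208, 153 and 130 CPM in the 1.25 mg/kg library, and 214, 196 and 146 CPM in the combination library. The step from single cells to clonotypes of 2 to 4 was the larger one in the first 3 of these libraries and the smaller one in the combination library.

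Nuclear members by clone size had median log2 ratios of 0.17, 0.16, 0.09 and −0.06, against 0.09, 0.16, 0.06 and 0.03 over all genes, in the order buffer, 10 mg/kg, 1.25 mg/kg and combination. Higher and lower past 1.25-fold were 15 and 2, 20 and 2, 10 and 2, and 7 and 5. Over all genes 26.9%, 37%, 24.9% and 20.9% were higher, so that the shares of members that were higher lay below the background. Of the 89 nuclear members measured in every library, 29 (32.6%) were above 0 and 10 (11.2%) below 0 in all 4. Over all genes these shares were 37.0% and 23.5%, so the excess above 0 seen by Pdcd1 state was absent here. The split over all members, 15 to 13, 20 to 13, 10 to 13 and 7 to 16 in CPM, became 11 to 15, 5 to 26, 6 to 17 and 5 to 20 with TMM. Without mitochondrial and ribosomal protein genes in the total it became 5 to 20, 7 to 23, 3 to 21 and 5 to 22. Cox7c, Ndufaf3 and Ndufaf7 rose past 1.25-fold in all 4 libraries, which is 3 of 89 nuclear members (3.37%) against 12.3% of all genes. Cox7c went from 481, 498, 414 and 432 CPM in single cells to 681, 730, 557 and 552 CPM in expanded cells. Ndufa4 went the other way, from 399, 352, 385 and 508 CPM to 288, 311, 267 and 268 CPM, log2 ratios of −0.47, −0.18, −0.53 and −0.92, and was thus lowest, relative to single cells, in the combination library (0.528-fold, 0.512 to 0.543). Ndufaf2 went from 19.1, 11.5, 10.4 and 11.3 CPM to 23.7, 28.7, 16.6 and 15.7 CPM.

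**Figure D2:**
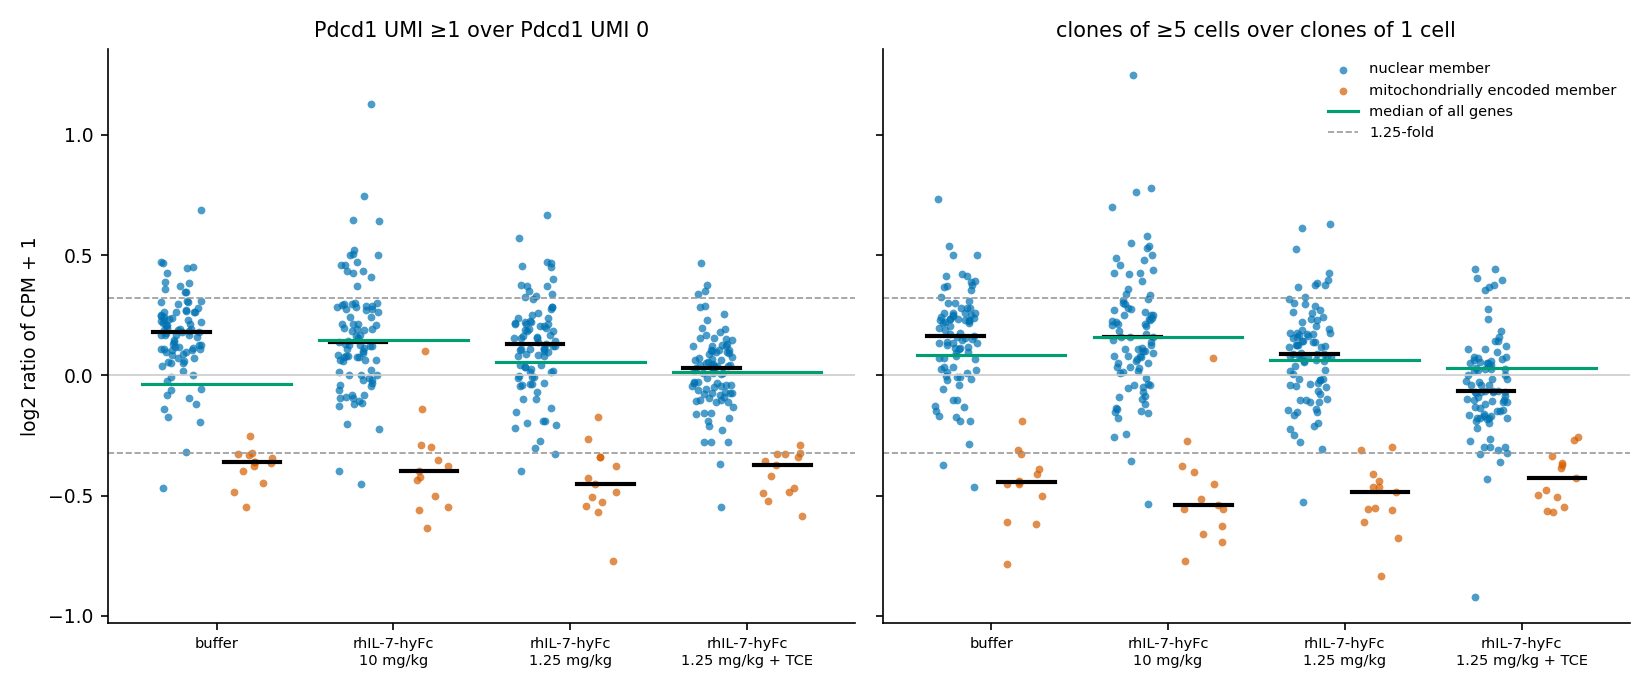
Log2 ratio of Pdcd1-positive over Pdcd1-negative cells (left) and of cells in clonotypes of at least 5 over clonotypes of 1 (right) in each library, 1 point for each of the 102 members measured in all 4 libraries (89 nuclear, 13 mitochondrial). Black bars are medians, green marks the median of all genes and dashed lines 1.25-fold; nearly all mitochondrial points lie below 0, and the nuclear points lie around the median of all genes, except in the Pdcd1 contrast of the buffer library, where their median is 0.21 above it.

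The same was seen in the share of each cell's own UMIs, which is again not a count of molecules per cell. The median share of a cell's UMIs that came from mitochondrial members was 1.58% in Pdcd1-negative and 1.08% in Pdcd1-positive cells of the buffer library. It was 1.84% and 1.35% in the 10 mg/kg library, 1.07% and 0.760% in the 1.25 mg/kg library, and 1.04% and 0.775% in the combination library. By clone size the medians went from 1.42% in single cells through 1.08% to 0.992% in the largest class of the buffer library, from 1.81% through 1.32% to 1.22% in the 10 mg/kg library, from 1.04% through 0.719% to 0.685% in the 1.25 mg/kg library, and from 0.972% through 0.805% to 0.707% in the combination library. Median depth differed between the states, at 6028 UMIs in negative and 10300 in positive cells of the buffer library, 9382 and 13173 in the 10 mg/kg library, 5135 and 10493 in the 1.25 mg/kg library and 6068 and 7191 in the combination library. After thinning each cell to 3000 UMIs and leaving out shallower cells (330 positive and 362 negative cells of the buffer library, 28 and 159, 189 and 386, and 184 and 240 of the others), the medians were 1.37% and 1.03%, 1.83% and 1.33%, 1.07% and 0.767%, and 1.00% and 0.767%. The share from nuclear members ran the other way or stayed level, with unthinned medians of 1.96% in negative and 2.43% in positive cells of the buffer library, 2.29% and 2.45%, 2.25% and 2.47%, and 2.51% and 2.59%.

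**Figure D3:**
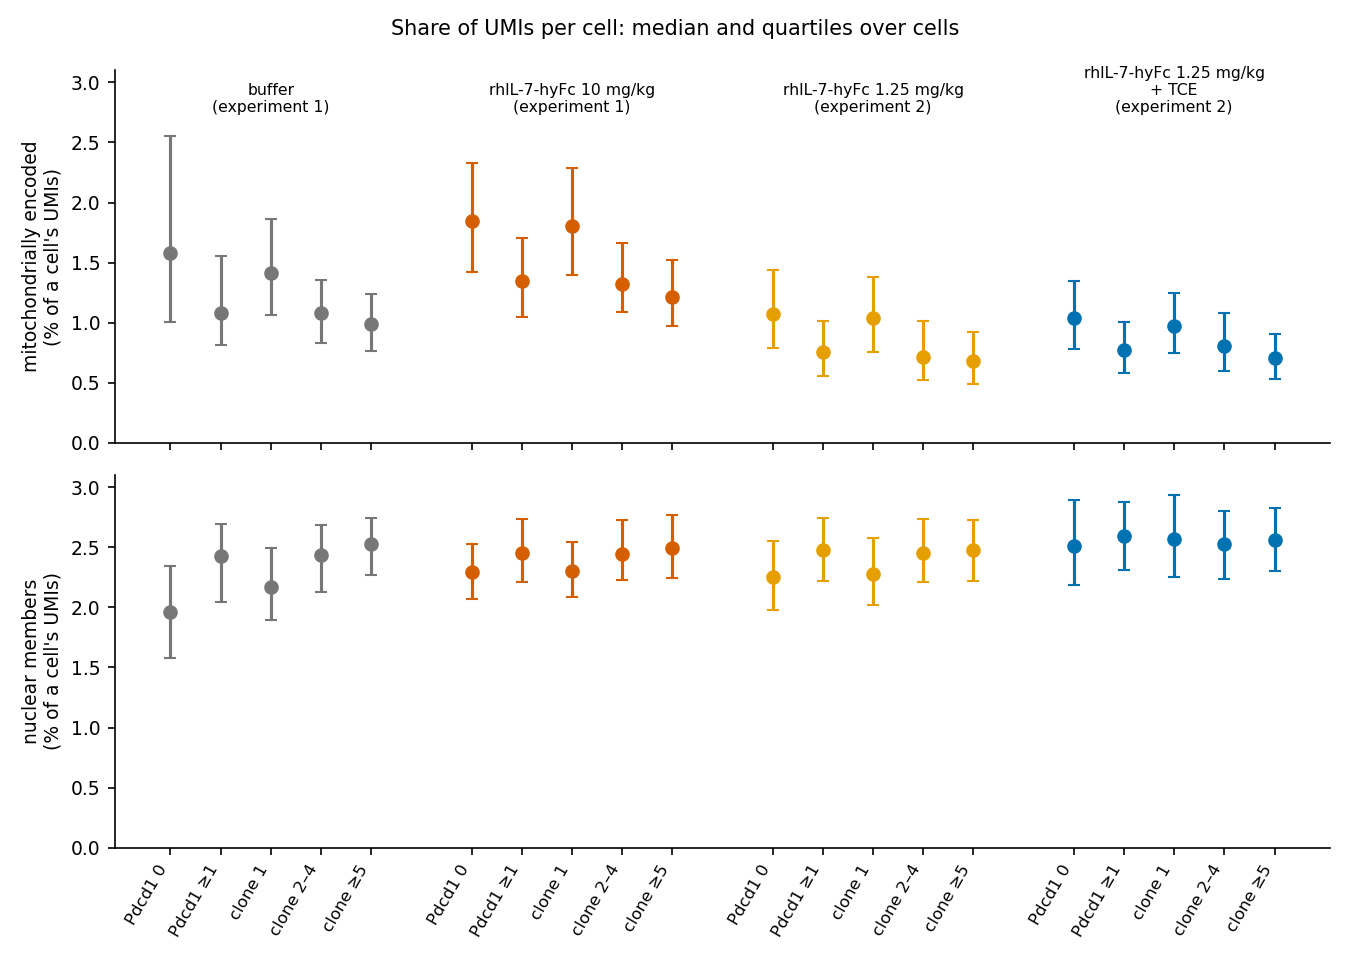
Share of each cell's UMIs from mitochondrial members and from nuclear members, by library and by class of cell, in percent. Points are medians over cells and bars run from the first to the third quartile. The mitochondrial median is lower in Pdcd1-positive and in expanded cells of every library. The nuclear median is higher in Pdcd1-positive cells of every library. By clone size it is higher in expanded than in single cells except in the combination library. There it is 2.57% in single and 2.56% in expanded cells.

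RNA of other cells also differed between the states, and its part in these ratios was tested only by leaving barcodes out. Barcodes with at least 3 macrophage-list UMIs made up 46.2% of positive and 50.8% of negative cells in the buffer library, 27.7% and 7.41% in the 10 mg/kg library, 60.4% and 22.3% in the 1.25 mg/kg library, and 21.5% and 6.89% in the combination library. The summed level of the list ran the other way in the buffer library than in the rest, at 930 CPM in positive and 5611 CPM in negative cells, against 747 and 455, 7274 and 4227, and 2012 and 451 CPM. Without those barcodes and without any with a Cd4 UMI, the mitochondrial ratio of positive over negative cells was 0.688, 0.762, 0.687 and 0.755, and that of expanded over single cells 0.727, 0.724, 0.659 and 0.734. All 8 ratios thus lay between 0.659 and 0.762. The buffer library was the most variable: with the Pdcd1 state itself read from thinned UMIs its ratio was 0.909, and without the cap on mitochondrial UMIs it was 0.675. Cells counted as cycling, by the markers Mki67 and Top2a, made up 45.5% of positive and 23.8% of negative cells in the buffer library. In the others they made up 42.3% and 20.1%, 39.5% and 15.6%, and 29.9% and 21.1%. Cycling was not separated from Pdcd1 state in these values.

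Between the treatments of experiment 1, the mitochondrial members were higher after 10 mg/kg rhIL-7-hyFc than after buffer, and the nuclear members were, at the median, nearly level. The mitochondrial sum rose from 12988 to 17611 CPM, 1.36-fold (1.35 to 1.36), and 9 of 13 rose past 1.25-fold, where 11.8% of 9067 genes did. mt-Nd3, a small core subunit of complex I, rose from 70.5 to 128 CPM (log2 0.86), mt-Atp8, an ATP synthase subunit, from 250 to 399 CPM (0.67), mt-Co3, a complex IV core subunit, from 1658 to 2444 CPM (0.56), and mt-Co1 from 3032 to 4381 CPM (0.53). mt-Nd1, mt-Nd2, mt-Nd4l, mt-Nd5 and mt-Co2 rose by 0.36 to 0.51 on the log2 scale. mt-Cytb (0.30), mt-Atp6 (0.29) and mt-Nd4 (0.25) stayed within 1.25-fold, and mt-Nd6 fell from 22.8 to 17.9 CPM (log2 −0.33).

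This treatment difference depends on how cells are weighted. Without the cap on mitochondrial UMIs the ratio of the sums was 1.21, with the cap at 5% it was 1.502, and it was 1.34 after thinning and 1.33 without Cd4-positive and macrophage-RNA barcodes. As a mean over cells of each cell's own CPM, in which shallow cells count as much as deep ones, it turned to 0.969. The per-cell median was 1.19% in the buffer and 1.74% in the 10 mg/kg library with the cap, and 1.26% and 1.77% without it. The buffer library also had the widest spread of depth, with quartiles of 4642 and 13662 UMIs against 7723 and 12469.

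The states are not equally represented in the libraries, and the treatment ratio was smaller within them. The mitochondrial sum was 1.16-fold higher (1.15 to 1.17) among Pdcd1-positive cells and 1.18-fold higher (1.17 to 1.19) among Pdcd1-negative cells. It was 1.26-fold higher in single clonotypes, 1.25-fold in clonotypes of 2 to 4 and 1.18-fold in clonotypes of at least 5. Past 1.25-fold, 2 of 13 mitochondrial members were higher in Pdcd1-positive cells (6.44% of all genes higher), 4 in Pdcd1-negative cells (10.7%), 6 in single clonotypes (9.93%), 7 in clonotypes of 2 to 4 (16.2%) and 3 in larger ones (8.17%). In the bulk sums a shift in the mix of cells and a change in RNA per cell cannot be told apart.

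Of the 90 nuclear members, 3 were higher and 15 lower in the 10 mg/kg library, where 11.8% and 37.8% of all genes were. Their median log2 ratio was −0.09, against −0.20 over all genes, and their summed ratio was 0.981 (0.978 to 0.983). The scaling sets this split: over all members 12 higher and 16 lower in CPM became 34 and 3 with TMM, 38 and 2 with median-of-ratios factors, and 25 and 4 without mitochondrial and ribosomal protein genes in the total. Past 1.5-fold, 2 members were higher and 3 lower, where 5.87% and 19.5% of all genes were. TMM and median-of-ratios moved every gene by 0.27 and 0.30 on the log2 scale. Relative to all genes the nuclear members thus stood 0.12 higher.

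In complex I, 2 of 36 members rose and 5 fell, where 11.8% of all genes were higher and 37.8% lower. Both are smaller shares than over all genes, and the single genes below are given as a description. Ndufa3 rose from 197 to 275 CPM (log2 0.47) and Ndufa6 from 285 to 383 CPM (0.43); both are accessory subunits outside the catalytic core. Ndufab1, the mitochondrial acyl carrier protein, fell from 163 to 118 CPM (−0.46) and the accessory subunit Ndufc2 from 201 to 153 CPM (−0.39). In complex II, Sdhc fell from 57.7 to 42.3 CPM (−0.44), and Sdha, Sdhb and Sdhd had log2 ratios of −0.09, −0.12 and −0.28. In complex III, Uqcrb fell from 291 to 212 CPM (−0.46). In complex IV, Cox5a fell from 585 to 452 CPM (−0.37). Of 18 ATP synthase genes measured, Atp5mpl, a small membrane subunit, rose from 270 to 381 CPM (0.49), and Atp5s, a low-level gene known as coupling factor B, fell from 7.05 to 3.93 CPM.

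The assembly factors had the lowest median of the nuclear groups, −0.31, with 5 of 11 lower and none higher. That share is near the 37.8% of all genes that were lower. Ndufaf2 fell from 22.3 to 14.3 CPM (−0.61), Ndufaf7 from 23.9 to 16.1 CPM (−0.54), Ndufaf3 from 41.4 to 32.3 CPM (−0.35) and Uqcc2, an assembly factor of complex III, from 145 to 112 CPM (−0.38). Ndufaf2, Ndufaf3, Ndufaf7 and Uqcc2 were among the 40 of 89 nuclear members above 0 in Pdcd1-positive cells of all 4 libraries. Pdcd1-positive cells made up 67.1% of the buffer and 17.4% of the 10 mg/kg library. The part of this difference in the treatment ratios of these genes was not tested. With each clonotype counted once, Ndufaf3 had a log2 ratio of 0.05. Within clonotypes of at least 5 cells, no nuclear member was higher and 1 was lower, where 17.3% of all genes passed 1.25-fold in either direction.

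**Figure D4:**
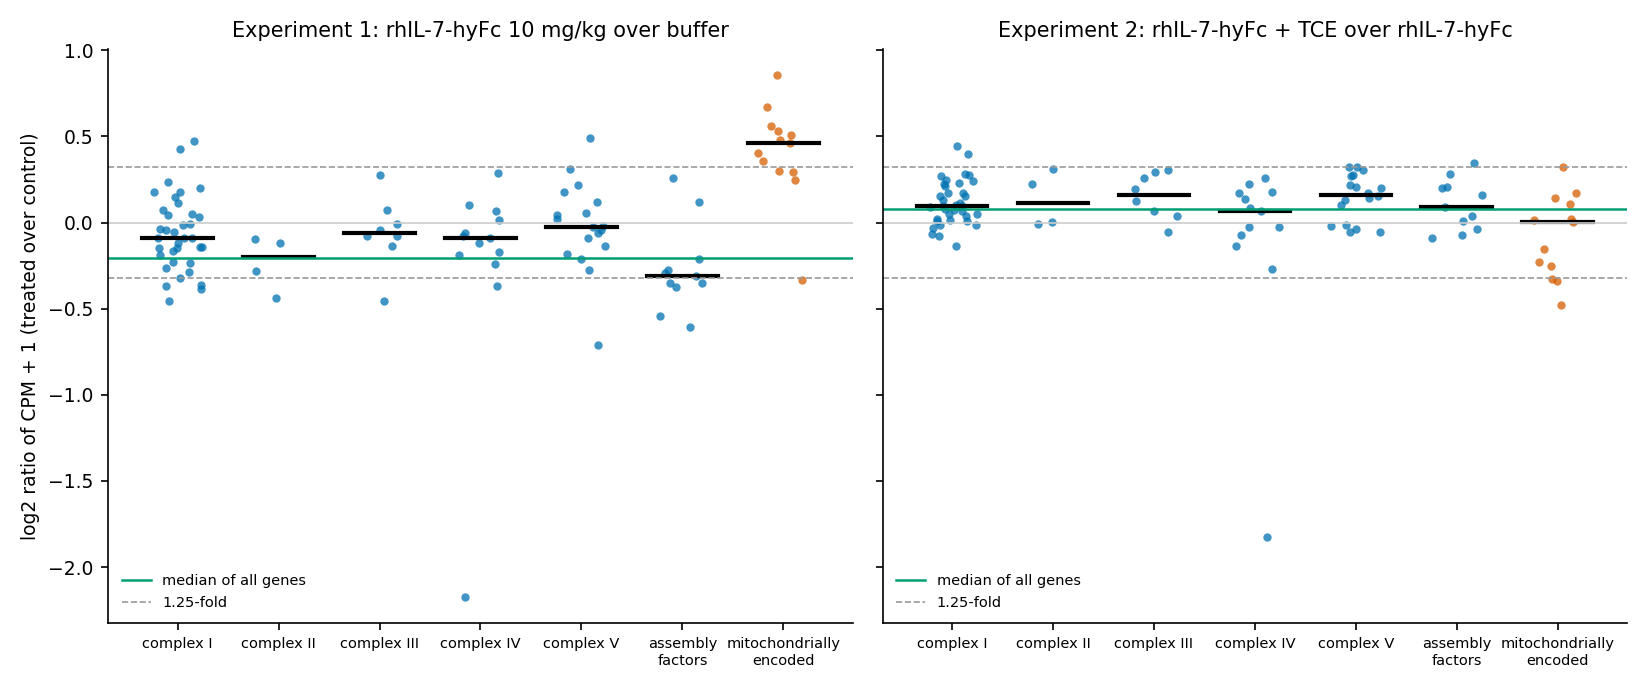
Log2 ratio of the treated over the comparison library for each measured member, grouped by complex, in experiment 1 (10 mg/kg rhIL-7-hyFc over buffer) and experiment 2 (combination over rhIL-7-hyFc alone), 1 point per gene, with 1.25-fold marked. The mitochondrial genes stand highest in experiment 1, with a median of 0.46, and centre on 0 in experiment 2, where the nuclear median is 0.11.

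In experiment 2 the TCE combination left the mitochondrial sum nearly level and the nuclear members slightly higher than rhIL-7-hyFc alone. The mitochondrial sum was 9198 CPM with rhIL-7-hyFc alone and 8999 CPM with the combination, a ratio of 0.978 (0.976 to 0.981). Single genes moved in opposite directions beneath this sum: mt-Nd4l rose from 509 to 636 CPM (log2 0.32), whereas mt-Nd2 fell from 224 to 160 CPM (−0.48), mt-Co3 from 777 to 615 CPM (−0.34) and mt-Nd3 from 54.3 to 43.1 CPM (−0.33). Higher past 1.25-fold were 13.2% of all 9308 genes and lower 13.6%. mt-Co1 made up 28.7% of mitochondrial UMIs with rhIL-7-hyFc alone and 32.4% with the combination, and mt-Co3 8.45% and 6.83%. In experiment 1 both had a higher share in the treated library, 23.3% and 24.9% for mt-Co1 and 12.8% and 13.9% for mt-Co3.

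The nuclear sum was 1.09-fold higher with the combination, and the median log2 ratio was 0.11 against 0.08 over all genes. Of the 90 measured, 4 rose and 1 fell past 1.25-fold. Past 1.5-fold no member was higher and 1 was lower, where 1.91% and 8.59% of all genes were. Ndufv1, which binds the flavin that accepts electrons from NADH, rose from 73.3 to 100.3 CPM (log2 0.45), and Ndufa10, an accessory subunit of complex I, from 100.7 to 133 CPM (0.40). Ndufaf7 rose from 22.1 to 28.4 CPM (0.35). Atp5g2, a subunit c gene, rose from 887 to 1111 CPM (0.33), and Atp5g3 stood just inside the threshold, at 745 and 922 CPM (0.31). Complex II ran from −0.01 for Sdhd to 0.31 for Sdha (82.7 and 103 CPM), with none past 1.25-fold. The split over all members of 5 higher to 4 lower became 2 to 5 with TMM and 13 to 2 without mitochondrial and ribosomal protein genes in the total.

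The ratio of nuclear sums was larger in Pdcd1-negative cells and single clonotypes than in Pdcd1-positive cells and clonotypes of at least 5. These are values without a test. The share of all genes that were higher past 1.25-fold was also larger in those 2 classes. The counts below are thus a description and not a result particular to the members. Among Pdcd1-negative cells 21 nuclear members were higher and 2 lower, where 17.9% of all genes were higher and 15% lower, and the nuclear sum was 1.15-fold higher (1.14 to 1.15). The 21 comprised 9 complex I genes, 1 of complex II, 3 of complex III, 3 of complex IV, 4 of ATP synthase and 1 assembly factor. Among single clonotypes it was also 21 and 2 (17.5% of all genes higher and 15.1% lower), with a sum 1.15-fold higher. Among Pdcd1-positive cells 3 were higher and none lower (13.9% of all genes in each direction), with a sum 1.07-fold higher, and in clonotypes of at least 5 cells 4 and none (13.3% and 13.5%), with a sum 1.05-fold higher. In Pdcd1-negative cells Ndufv1 rose from 74.5 to 111 CPM (log2 0.57), Sdhb from 176 to 247 CPM (0.49), Atp5g3 from 673 to 968 CPM (0.52) and Ndufa4 from 381 to 497 CPM (0.38). In Pdcd1-positive cells the same genes stood at 72.9 and 95.8, 220 and 242, 770 and 903, and 303 and 340 CPM. Macrophage-list RNA differed as well, at 4227 and 451 CPM in the Pdcd1-negative cells of the rhIL-7-hyFc and combination libraries and 7274 and 2012 CPM in the positive cells, and its part in these values was not tested within the classes.

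**Figure D5:**
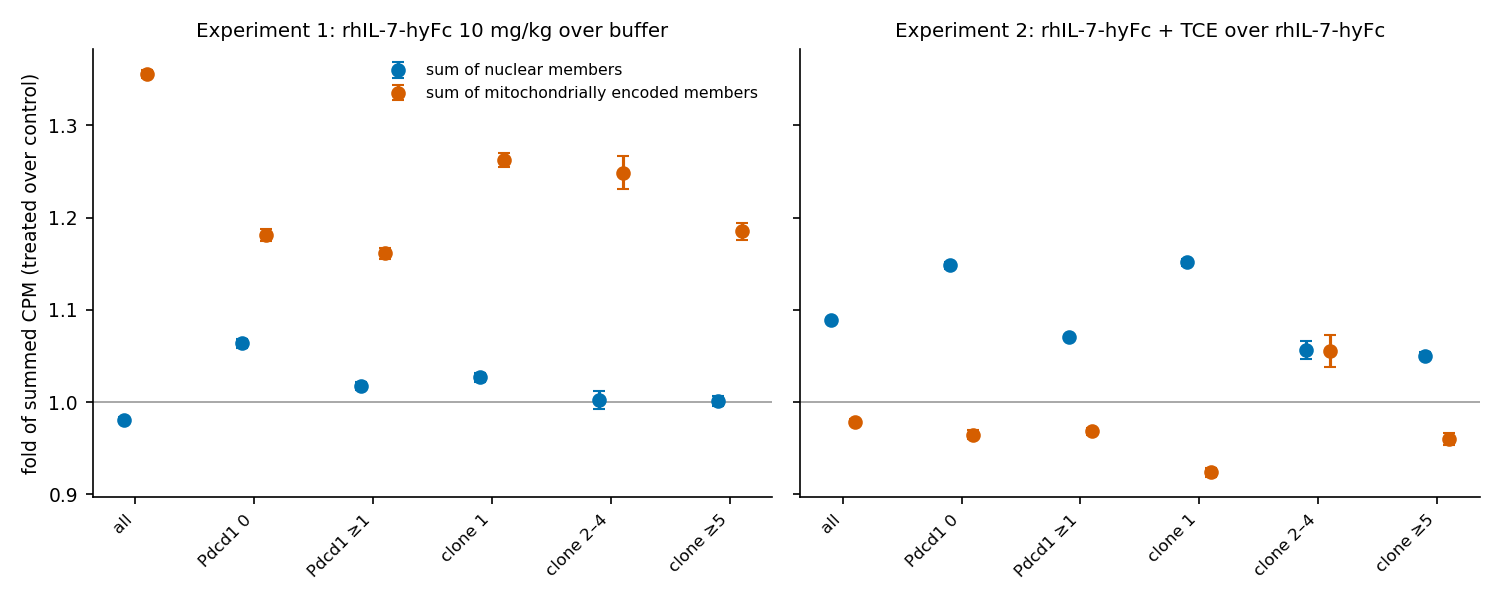
Ratio of summed CPM, treated over comparison library, for mitochondrial and nuclear members within each class of cell, with 95% intervals for counting error. In experiment 1 the mitochondrial ratio lies between 1.16 and 1.36 in all classes; in experiment 2 the nuclear ratio is 1.15 in Pdcd1-negative cells and single clonotypes and 1.05 to 1.07 in Pdcd1-positive cells and larger clonotypes.

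Some subunits have several genes. The UMIs of the 3 subunit c genes, whose windows are printed above, divided into 14.9% from Atp5g1, 44.2% from Atp5g2 and 40.9% from Atp5g3 in the buffer library, and 14.1%, 48.4% and 37.5% in the 10 mg/kg library. In the 1.25 mg/kg library the shares were 15.6%, 45.9% and 38.6%, and in the combination library 14.04%, 47.0% and 39.0%. Each of these 3 shares shifted by under 5 percentage points between treatments. Cox7a2l made up 40.9% of the UMIs of the Cox7a2, Cox7a1 and Cox7a2l group in the buffer library and 49.1% in the 10 mg/kg library. In experiment 2 its shares were 26.5% and 23.9%. Several respiratory chain genes have processed pseudogenes of near-identical sequence, so how counting divided such reads is uncertain.

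Cox6a2, the heart and skeletal muscle form of a complex IV subunit, had the largest ratio of all members in both treatment comparisons and belonged to few barcodes. It fell from 18.1 to 3.24 CPM in experiment 1 and from 5.85 to 0.933 CPM in experiment 2. Of its UMIs in gated barcodes, 89.7%, 72.7%, 88.1% and 67.1% lay in barcodes that also held a UMI of Siglech, a plasmacytoid dendritic cell marker. Barcodes with both genes numbered 41, 6, 55 and 4 in the order buffer, 10 mg/kg, 1.25 mg/kg and combination, of 97, 8, 82 and 4 with Siglech. Without the Siglech barcodes Cox6a2 stood at 1.92 and 0.885 CPM in experiment 1 and at 0.7002 and 0.307 CPM in experiment 2, below the level at which a gene counted as measured.

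Around the members, 7 lists of related mitochondrial and metabolic genes were followed. In experiment 1, where 11.8% of all genes were higher and 37.8% lower, glycolysis genes were 17 of 18 lower, with a median log2 ratio of −0.89. Slc16a3, a lactate exporter, fell from 100.8 to 23.6 CPM, Slc2a3, a glucose transporter, from 66.8 to 19.5 CPM, and the glycolytic enzyme Tpi1 from 689 to 219 CPM. Mitochondrial ribosome genes were 3 higher and 20 lower of 77 (median −0.21), a lower share in each direction than over all genes, with Mrpl30 rising from 208 to 355 CPM and Mrps6 falling from 52.3 to 27.1 CPM. The tricarboxylic acid cycle had 1 higher and 5 lower of 20 (−0.18), and the list of mitochondrial transcription and biogenesis 1 and 5 of 18 (−0.19). Assembly factors with other names were 2 higher and 12 lower of 34 (−0.22), led by the copper chaperone Cox17, which fell from 247 to 107 CPM. Complex III subunits and electron carriers with other names were 0 and 3 of 9 (−0.27), led by Gpd2, the mitochondrial glycerol phosphate dehydrogenase, which fell from 84.8 to 24.2 CPM. The mitochondrial stress list was 1 and 8 of 19 (−0.26), led by the mitophagy receptor Bnip3, from 107 to 20.7 CPM. Apart from glycolysis, the medians ran from −0.27 to −0.18, around the −0.20 of all genes.

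In experiment 2, where 13.2% of all genes were higher and 13.6% lower, glycolysis was again the list with the lowest median, with 9 of 18 lower and none higher (−0.31), including Slc16a3 from 114 to 53.5 CPM and Hk2, the first enzyme of the pathway, from 14.3 to 6.78 CPM. Complex III subunits and electron carriers with other names were 5 higher and 0 lower of 10 (0.30), with Etfb, an electron carrier of fatty acid oxidation, rising from 111 to 157 CPM. Mitochondrial ribosome genes were 8 and 1 of 78 (0.14), tricarboxylic acid cycle genes 3 and 1 of 20 (0.20), assembly factors with other names 3 and 2 of 35 (0.14) and transcription and biogenesis genes 3 and 0 of 17 (0.11). The stress list was 1 and 4 of 19, with Gpx1, a peroxide-removing enzyme, falling from 574 to 281 CPM.

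Within the libraries, glycolysis genes were higher in Pdcd1-positive cells, with medians of 0.57, 0.97, 0.79 and 0.52 and counts of 13 of 19, 16 of 17, 17 of 18 and 11 of 17 past 1.25-fold, in the order buffer, 10 mg/kg, 1.25 mg/kg and combination, where 17.5%, 34.2%, 25.6% and 17.9% of all genes were higher. The list of mitochondrial transcription and biogenesis, which holds nuclear genes that transcribe and maintain mitochondrial DNA, had medians of −0.07, 0.02, −0.07 and −0.08. The mitochondrial ribosome list had medians of 0.13, 0.24, 0.18 and 0.05. By clone size glycolysis medians were 0.74, 0.93, 0.80 and 0.59. The mitochondrial members were the only one of these groups, glycolysis included, with a summed or median value below 0 in all 8 contrasts.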

How the data were processed

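The authors deposited raw UMI counts per gene and barcode for 4 libraries, written by Cell Ranger 4.0.0 (experiment 1) and 6.1.2 (experiment 2), per the file headers, with T cell receptor contigs; the genome build was GRCm38, per the submitters' processing notes. Counts were summed over gated barcodes and scaled to CPM, a total of 1000000 over all genes; log2 ratios used a pseudocount of 1 CPM. CPM have exact Poisson intervals, folds conditional binomial ones and shares Clopper-Pearson ones (exact, 95%, counting error only). With 1 library per group no test was possible; a gene counted as changed past 1.25-fold. Doublets were not removed. The scripts were tested on simulated data. Sequences came from RefSeq tables and gene spans from GENCODE M21.

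Members and gene lists were chosen with earlier results of these data known. Named genes were all mitochondrial members, Sdha to Sdhd, the 10 highest and 10 lowest ratios per treatment, the 3 largest per complex and list, the 5 nuclear members with the largest ratios of 1 sign in all 4 libraries per within-library contrast and the paralogue groups; other genes named in the text were chosen after their values were seen. Alternatives changed the gate, cap, scaling (edgeR 4.0.16 for TMM factors), filters, pseudocount, weighting of cells, thinning and clonotype definition. Python 3.11.15, numpy 2.4.6, pandas 2.3.3 and scipy 1.17.1 were used.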

Additional observations from a re-analysis of the deposited data

How the results depend on the processing

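With 1 library per group, the animal, the library and the treatment cannot be told apart, and intervals cover counting error only. No paired analysis was possible because each group has 1 library and the labels give no replicate numbers. Of 27 settings, 3 were chosen after seeing the data. Under every setting run for these contrasts, the mitochondrial sum was lower in Pdcd1-positive and in expanded cells of every library. The log2 ratio by Pdcd1 state ran from −0.57 to −0.14 in the buffer library, −0.61 to −0.38 in the 10 mg/kg library, −0.55 to −0.40 in the 1.25 mg/kg library and −0.51 to −0.36 in the combination library. The count of members past 1.25-fold between Pdcd1 states of the buffer library, 25 in CPM, was 49 with TMM, 52 with median-of-ratios factors and 11 with the state read from thinned UMIs. For treatment in experiment 1 the count of 28 became 18 where a clonotype counted as 1 cell and 16 where per-cell CPM were averaged. For treatment in experiment 2 the count of 9 became 22 where a clonotype counted as 1 cell and 15 in CPM without mitochondrial and ribosomal protein genes. With per-cell CPM averaged, the experiment 1 log2 ratio turned below 0 for the mitochondrial sum (−0.0454), mt-Co2 (−0.0755), mt-Nd1 (−0.0814) and mt-Nd2 (−0.00593). With each clonotype counted once, Ndufaf3 turned to 0.055. These were the 4 reversals among 693 values of 33 single-gene results, with the sum besides. The cause of these changes was not tested.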
